A study of Mus musculus with 24 samples.

Results

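Uroplakins are the membrane proteins of the urothelium, and their transcripts were followed here in whole kidneys of mgb-/- mice with mild, moderate or severe hydronephrosis and of control mice. Members were taken by name, as Upk1a, Upk1b, Upk2, Upk3a, Upk3b and Upk3bl, and every array probe whose transcript accession maps to one of them was used. This gave 7 of the 55681 probes on the array and 6 of the 27959 genes tested. RNA from 24 whole kidneys had been measured, each kidney on its own array, and the donors were male mice of like age. The labels call the mice young adult, while by the methods they were in the fourth and the fifth week after birth, shortly after weaning. Controls were 6 kidneys of genotype mgb+/+. The other 18 kidneys were mgb-/-, graded by ultrasound from the share of parenchyma that was left as mild (7 kidneys), moderate (5 kidneys) or severe (6 kidneys). The mgb-/- mouse has a bladder that cannot empty, so that urine backs up into the kidneys from fetal life on, and the labels name no treatment in any group. The labels do not say which kidneys came from the same mouse, so kidneys were treated as independent and p-values measure the spread between them.

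Uroplakins build the rigid plaques on the surface of the umbrella cells that line the renal pelvis, ureter and bladder, where they keep urine out and store membrane for stretch. Upk1a and Upk1b are tetraspanins, proteins that cross the membrane several times, while Upk2, Upk3a and Upk3b cross it once. Upk1a pairs with Upk2 and Upk1b pairs with Upk3a or Upk3b before either pair can leave the endoplasmic reticulum. Upk3b is also made by mesothelium, the sheet of cells that covers organs, and Upk3bl encodes a relative of Upk3b whose role is less clear. In a whole kidney these transcripts come from a thin lining beside a large mass of tubules, so more urothelial cells, less parenchyma and more RNA per urothelial cell cannot be told apart in these samples.

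The arrays lay on 3 slides of 8 and were scanned on 1 day, and each slide held 2 control, 2 or 3 mild, 1 or 2 moderate and 1 to 3 severe kidneys. Between 55.6% and 70.7% of the probes on an array were well above background. Kidney markers were present: 8 of 8 proximal tubule genes, 6 of 6 podocyte genes and 7 of 8 collecting duct genes passed the filter on dim probes. All 6 uroplakins passed it too. Each gene had a single probe except Upk3bl with 2, and every uroplakin probe was well above background on all 24 arrays except the brighter Upk3bl probe, which missed this mark in 1 control kidney. A level is the log2 signal of the probe minus the log2 of that array's 75th percentile, so 0 is the percentile. That percentile had a median of 534 intensity units in severe kidneys, against 742 for mild, 620 for moderate and 713 for control kidneys, with overlapping ranges, and its part in the differences was not tested beyond the other scalings tried. Levels of different probes are not comparable with each other, and only the same gene is compared between kidneys.

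Promoter sequences of 4 members were at hand (RefSeq, build GRCm38.p6, 250 bases before to 50 bases after the annotated start). They are shown because the members moved together in the kidneys described further on, and capitals mark the matches to the motifs searched. The Upk1a window is chr7:30612685-30612984 on the minus strand, Upk3a is chr15:85016891-85017190 on the plus strand, Upk3b is chr5:136038246-136038545 on the plus strand and Upk3bl is chr5:136057017-136057316 on the plus strand.
Upk1a: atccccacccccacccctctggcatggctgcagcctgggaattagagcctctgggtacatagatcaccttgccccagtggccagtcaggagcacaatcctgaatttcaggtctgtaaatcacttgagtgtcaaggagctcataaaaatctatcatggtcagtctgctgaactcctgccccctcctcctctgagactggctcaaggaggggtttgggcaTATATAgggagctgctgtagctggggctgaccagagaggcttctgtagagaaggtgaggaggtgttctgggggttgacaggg
Upk3a: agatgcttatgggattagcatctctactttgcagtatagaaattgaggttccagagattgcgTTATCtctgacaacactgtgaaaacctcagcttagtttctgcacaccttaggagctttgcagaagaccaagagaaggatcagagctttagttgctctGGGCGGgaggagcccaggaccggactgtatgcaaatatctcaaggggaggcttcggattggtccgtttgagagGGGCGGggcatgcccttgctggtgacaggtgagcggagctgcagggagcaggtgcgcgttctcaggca
Upk3b: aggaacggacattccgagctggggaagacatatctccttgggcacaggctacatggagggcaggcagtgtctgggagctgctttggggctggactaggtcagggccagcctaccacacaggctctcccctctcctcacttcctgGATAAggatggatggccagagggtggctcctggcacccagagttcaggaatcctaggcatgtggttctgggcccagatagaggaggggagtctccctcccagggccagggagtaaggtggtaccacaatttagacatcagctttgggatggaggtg
Upk3bl: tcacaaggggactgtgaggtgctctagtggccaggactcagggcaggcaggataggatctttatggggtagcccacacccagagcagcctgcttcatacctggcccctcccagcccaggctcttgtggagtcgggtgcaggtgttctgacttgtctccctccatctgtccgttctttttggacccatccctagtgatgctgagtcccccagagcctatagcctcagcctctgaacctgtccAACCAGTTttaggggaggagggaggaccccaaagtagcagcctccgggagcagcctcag
Both strands were searched for the TATA box (TATAAA and its variant TATATA), a grainyhead-like motif (AACNNGTT), a GATA motif (GATAA), a forkhead motif (TGTTTNC) and a GC box (GGGCGG). Upk1a held TATATA from 32 to 27 bases before the start, a match present in 5.67% of 32851 mouse promoters. Upk3a held 2 GC boxes and 1 GATA match, where 35.7% of promoters held 1 or more GC boxes and 25.4% held 1 or more GATA matches. Upk3b held 1 GATA match, and Upk3bl held 1 grainyhead-like match that ends 2 bases before the start and occurs in 4.20% of promoters. No motif was shared by more than 2 of the 4 windows. These are matches of letters, and neither they nor their absence shows which factor acts on a gene.

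Upk1a, the tetraspanin partner of Upk2, had levels of 1.90 to 3.40 in the 6 control kidneys (median 2.84). Mild kidneys ran from 1.52 to 4.99 with a median of 3.32. Moderate kidneys gave 4.44, 4.59, 4.15, 4.78 and 3.04. Severe kidneys ran from 5.31 to 6.94 with a median of 5.80, so the lowest severe kidney lay above every other kidney of the series. Upk2 ran from -0.85 to 0.53 in control kidneys (median -0.10) and from -1.20 to 2.28 in mild kidneys (median 0.76). Its moderate levels were 1.45, 2.03, 1.43, 2.05 and 0.44, and severe kidneys ran from 2.84 to 4.69 (median 3.34). For this gene too the severe kidneys did not overlap with any other group, while 3 mild kidneys lay below the lowest control and 4 above the highest.

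Upk1b, the tetraspanin that pairs with Upk3a and Upk3b, ran from -2.13 to -0.61 in control kidneys (median -1.06) and from -2.02 to 1.50 in mild kidneys (median -0.31). Its levels in moderate kidneys were 1.03, 0.99, 0.42, 1.47 and -0.64. Severe kidneys ran from 1.65 to 3.73 (median 2.52), again above all other kidneys, though by a narrow margin over the highest mild kidney. Upk3a, whose product binds Upk1b and carries the larger tail inside the cell, ran from 0.49 to 2.22 in control kidneys (median 1.66) and from -0.29 to 3.81 in mild kidneys (median 1.93). Moderate kidneys gave 3.02, 3.36, 3.11, 3.33 and 1.51, and severe kidneys ran from 4.10 to 5.87 (median 4.57). The severe kidneys stood apart from the rest, and moderate replicate 5 lay inside the range of the controls.

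Upk3b ran from -3.31 to -1.44 in control kidneys (median -1.91) and from -3.16 to -0.81 in mild kidneys (median -1.71). Moderate kidneys gave -1.20, -1.68, -1.32, -0.74 and -3.12, and severe kidneys ran from -0.91 to 1.14 (median -0.23). Here the groups overlapped: 1 mild and 1 moderate kidney exceeded the lowest severe kidney, and moderate replicate 5 lay near the lowest control. Upk3bl ran from -5.34 to -2.90 in control kidneys (median -3.30) and from -4.40 to -2.62 in mild kidneys (median -3.51). Moderate kidneys gave -1.87, -3.64, -1.47, -1.59 and -4.61, and severe kidneys ran from -1.80 to 0.88 (median -1.16). Severe kidneys were above all control and mild kidneys but not above all moderate ones, which for this gene split into 3 high and 2 low kidneys. The highest severe kidney was replicate 2 for 5 of the 6 genes and replicate 5 for Upk3bl.

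**Figure D1:**
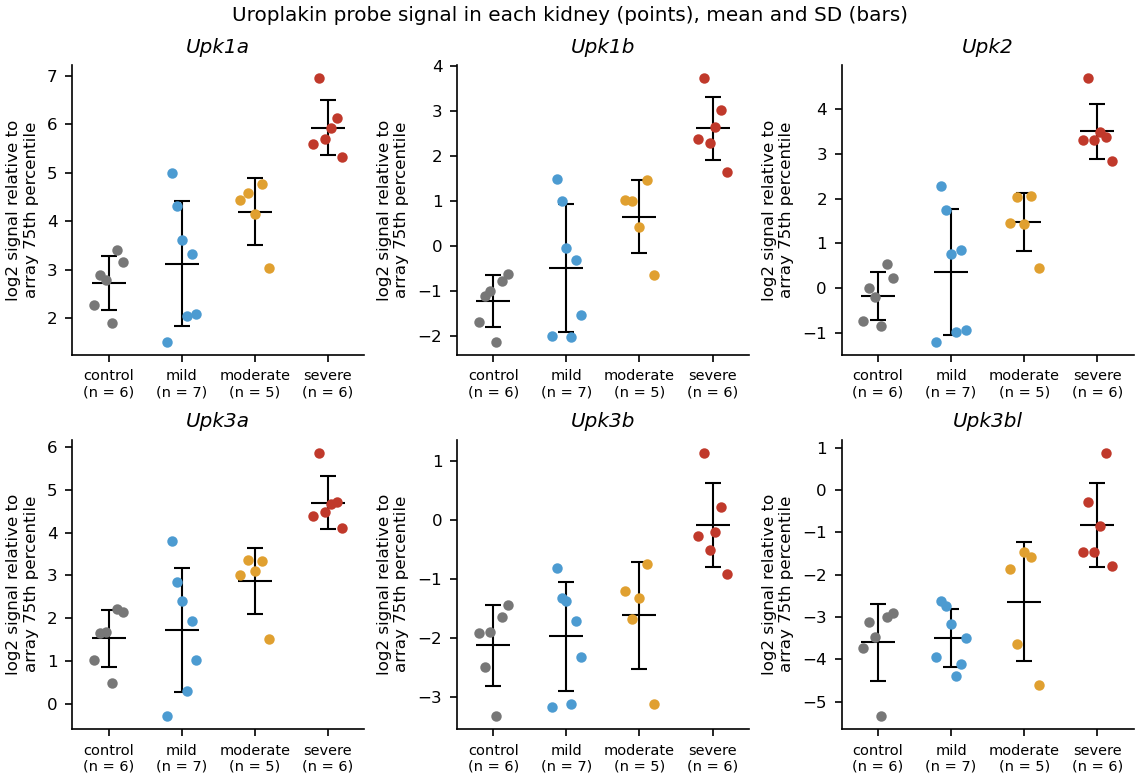
Level of each uroplakin (y axis, log2 signal relative to the 75th percentile of the array) in the 24 kidneys by group; points are kidneys, the long bar is the group mean and the error bar its SD. For Upk1a, Upk1b, Upk2 and Upk3a the 6 severe kidneys lie above all others, and the 7 mild kidneys are the most spread.

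Non-overlap of groups can be read against the whole array. Severe kidneys lay wholly above mild kidneys for 5 of 6 uroplakins, where 0.499% of the 27634 genes with a value on every array did so. They lay above all controls for 6 of 6 (2.86% of genes), above all moderate kidneys for 4 of 6 (0.42%) and above all other 18 kidneys for 4 of 6 (0.119%), namely Upk1a, Upk1b, Upk2 and Upk3a. Moderate kidneys lay above all controls for 0 of 6 uroplakins, against 1.33% of genes, and moderate replicate 5 overlapped with the controls in every case. In 4 of 5 moderate kidneys Upk1a, Upk1b, Upk2 and Upk3a exceeded the highest control.

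For Upk1a, Upk1b, Upk2 and Upk3a the mild kidneys were the least alike, with SDs of 1.29 to 1.45 against 0.54 to 0.81 in the other groups. The SD of Upk1a was 1.29 in the 7 mild kidneys, 0.56 in the 6 control kidneys, 0.69 in the 5 moderate kidneys and 0.57 in the 6 severe kidneys. For Upk3b the SD was 0.91 in both mild and moderate kidneys, and for Upk3bl it was lowest in mild (0.69) and highest in moderate kidneys (1.41). Of the mild kidneys, 4 exceeded the mean of the controls and 3 fell below it for each of the 6 genes. Mild replicate 2 ranked 7th of all 24 kidneys for Upk1a, Upk1b, Upk2 and Upk3a, directly after the 6 severe kidneys. Mild replicates 1 and 5 took ranks 22 to 24 for these 4 genes, beside control replicate 4 with ranks 21 to 24.

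In severe against control kidneys all 6 uroplakins rose. A gene was called when it changed 2-fold or more in limma and its p, adjusted over all 27959 genes, was under 0.05, and here 2.99% of genes were called higher and 1.73% lower. Upk1b rose by a log2 difference of 3.84 ± 0.54 (SE, adjusted p = 0.000177), which is 14.4-fold with a 95% interval of 6.62 to 31.1. Upk2 rose by 3.68 ± 0.51 (12.8-fold), Upk1a by 3.19 ± 0.48 (9.15-fold) and Upk3a by 3.17 ± 0.54 (9.02-fold). Upk3bl rose by 2.76 ± 0.55 (6.80-fold) and Upk3b by 2.03 ± 0.45 (4.08-fold, adjusted p = 0.00743). Each of these 6 calls was kept with any 1 kidney left out and with each other setting tried. The size was less firm for Upk3bl, whose difference was 1.68 after normexp correction with an offset of 50. The second Upk3bl probe gave 2.59 ± 0.51.

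Within the mgb-/- kidneys, severe against mild, all 6 were called higher as well, while 0.454% of all genes were called higher and 0.00715% lower. The log2 differences were 3.15 ± 0.49 for Upk2, 3.11 ± 0.52 for Upk1b, 2.99 ± 0.52 for Upk3a and 2.80 ± 0.46 for Upk1a, with adjusted p from limma of 0.00375 for Upk2. Upk3bl rose by 2.67 ± 0.53 (adjusted p = 0.0164) and Upk3b by 1.88 ± 0.43 (adjusted p = 0.0465). The comparison shares the severe kidneys with the one against controls. The 4 calls of Upk1a, Upk1b, Upk2 and Upk3a held with any 1 of the 24 kidneys left out. That of Upk3bl was lost without mild replicate 5, severe replicate 2 or severe replicate 5, and that of Upk3b held only in 7 of 24 such fits, with adjusted p from 0.0200 to 0.146. A fit on the severe and mild kidneys alone called 0 of 6 uroplakins and no other gene, with adjusted p from limma of 0.0787 to 0.147 for the uroplakins and an unadjusted p under 0.05 for 6 of them.

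**Figure D2:**
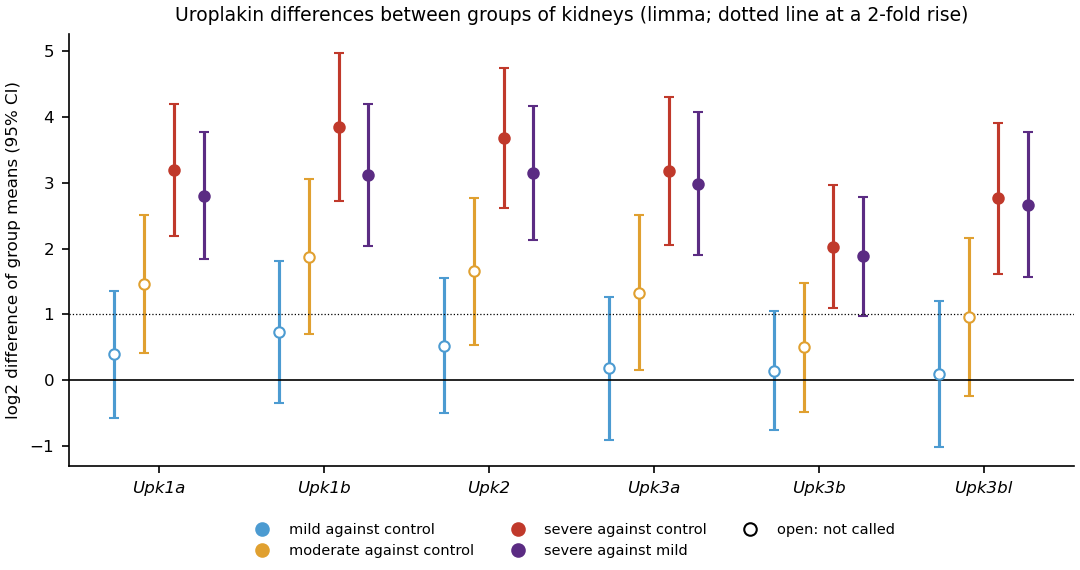
Log2 difference of group means (y axis) with its 95% confidence interval for each uroplakin in 4 comparisons of kidneys, from limma; filled points were called (a fold of 2 or more with an adjusted p under 0.05). Both severe comparisons are filled throughout, all mild and moderate ones are open, and 4 of the 6 moderate intervals lie above 0.

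Milder grades gave no calls. In mild against control kidneys 0 of 6 uroplakins were called by limma, 0 had an unadjusted p under 0.05, and the log2 differences ran from 0.10 for Upk3bl to 0.73 for Upk1b, while 1.15% of all genes were called higher. With each array scaled by its median, Upk3b and Upk3bl turned slightly negative. The 95% interval for Upk1b was -0.34 to 1.81, which reaches up to a 3.51-fold rise. In moderate against control kidneys 0 of 6 were called by limma and 4 had an unadjusted p under 0.05, while 0.529% of all genes were called higher. Upk1b differed by 1.88 ± 0.56 (adjusted p = 0.0909), Upk2 by 1.65 ± 0.54, Upk1a by 1.46 ± 0.50 and Upk3a by 1.33 ± 0.57, and without moderate replicate 5 the Upk1b difference was 2.20 and was called (adjusted p = 0.0381).

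Between neighbouring grades no uroplakin was called. In moderate against mild kidneys 0 of 6 uroplakins were called by limma and 4 had an unadjusted p under 0.05, with differences of 0.36 to 1.15, and 0.0% of all genes were called (1866 at an unadjusted p under 0.05). In severe against moderate kidneys 0 of 6 were called and all 6 had an unadjusted p under 0.05, with differences of 1.53 to 2.02 and adjusted p from limma of 0.211 to 0.305, while 0.00358% of all genes were called higher. A slope over the 18 mgb-/- kidneys, with the grades coded 1, 2 and 3, passed for 5 of 6 uroplakins against 0.232% of genes. It was 1.56 ± 0.27 log2 per grade for Upk2, 1.55 ± 0.28 for Upk1b, 1.49 ± 0.28 for Upk3a, 1.39 ± 0.25 for Upk1a and 1.32 ± 0.27 for Upk3bl, with an adjusted p of 0.0359 for Upk2, and 0.93 ± 0.23 for Upk3b (adjusted p = 0.128). With the slide as a block all 5 calls were lost (adjusted p from limma of 0.0900 to 0.0904), and so they were with median scaling. Upk3bl kept its slope call in 3 of 11 alternatives other than omission of a kidney, and its slope was 0.85 after normexp correction. The slope calls also hung on single kidneys. Leaving out mild replicate 1, 4, 5, 6 or 7, moderate replicate 3 or severe replicate 1, 2, 3, 4 or 5 left 0 called, and leaving out moderate replicate 1, 2 or 4 left 1, 2 and 3.

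Taken as 1 group, the 18 mgb-/- kidneys differed from the 6 controls by 0.87 (Upk3b) to 2.09 (Upk1b) on the log2 scale. Upk1b was the 1 uroplakin called (adjusted p = 0.0451), while 1.83% of all genes were called higher. Upk2 differed by 1.89 ± 0.68 (adjusted p = 0.0647), Upk1a by 1.62 ± 0.61, Upk3a by 1.50 ± 0.67, Upk3bl by 1.23 ± 0.64 and Upk3b by 0.87 ± 0.49. The Upk1b call held in 8 of 24 fits with 1 kidney left out, with adjusted p from 0.0256 to 0.107, and failed without any 1 control.

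Each slide held 1 to 3 kidneys of a group, and values within slides are given without a test. The mean of Upk1a, Upk1b, Upk2 and Upk3a was higher in severe than in mild kidneys by 4.86 on slide 1 (1 severe against 3 mild kidneys), 2.64 on slide 2 and 1.90 on slide 3. Upk3b was higher by 3.42, 1.82 and 1.06 on the same slides. The direction was the same on all 3 slides for both.

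Ratios between partners were compared next, to see whether the members of a pair changed by the same amount. The log2 ratio of 2 probes within a kidney was averaged per group, and 15 differences between groups were tested with exact permutation tests, two-sided, adjusted over these 15. The Upk1a over Upk2 ratio was 2.91 ± 0.09 (SD, n = 6) in control, 2.77 ± 0.21 (n = 7) in mild and 2.43 ± 0.18 (n = 6) in severe kidneys. It fell by 0.48 from control to severe kidneys (exact permutation p = 0.00216, the smallest this design allows, adjusted p = 0.00500) and by 0.35 from mild to severe kidneys (exact adjusted p = 0.0251), so the Upk2 signal rose by more than the Upk1a signal. The Upk1a probe is the brightest of the family, with a highest signal of 67580.8 intensity units against 13544.0 for Upk2. No spot was flagged as saturated, and the part of high signal in this ratio was not tested.

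The Upk1b over Upk3a ratio was -2.75 ± 0.13 (n = 6) in control, -2.21 ± 0.31 (n = 7) in mild, -2.21 ± 0.33 (n = 5) in moderate and -2.08 ± 0.25 (n = 6) in severe kidneys. It was higher than in controls by 0.55 in mild kidneys (exact permutation p = 0.00117, adjusted p = 0.00500) and by 0.67 in severe kidneys (exact adjusted p = 0.00500). Severe and mild kidneys differed by 0.12 (exact adjusted p = 0.512), which misses the threshold. Every mild and every severe kidney had a higher ratio than every control kidney, although no uroplakin was itself called in mild kidneys. The margin was narrow, with -2.56 in the lowest mild and -2.61 in the highest control kidney. Moderate kidneys overlapped with the controls (lowest moderate kidney -2.69). How many other pairs of genes separate in this way was not counted. Upk1b lies on chromosome 16. Of the 15 genes tested among the 10 on either side of it, 1 was called in mgb-/- against control kidneys. It was Drd3, called higher (log2 difference 1.05, a gene chosen after its value was seen), where 1.83% of all genes were called higher. The median difference of the 15 was 0.016. Whether the place on the chromosome has a part in the ratio was not tested.

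Upk3b rose by less than Upk1b and Upk3a. The Upk1b over Upk3b ratio was 0.89 ± 0.40 (n = 6) in control, 1.48 ± 0.60 (n = 7) in mild, 2.27 ± 0.35 (n = 5) in moderate and 2.71 ± 0.12 (n = 6) in severe kidneys. Severe kidneys exceeded mild ones by 1.23 and controls by 1.81 (exact adjusted p = 0.00500 for both). The Upk3a over Upk3b ratio was 3.65 ± 0.41 (n = 6) in control, 3.69 ± 0.58 (n = 7) in mild and 4.79 ± 0.20 (n = 6) in severe kidneys, and severe kidneys again exceeded both groups, by 1.14 and 1.10 (exact adjusted p = 0.00500 for both). The Upk3b over Upk3bl ratio was 0.78 lower in severe than in mild kidneys (exact adjusted p = 0.0563). Upk3b and Upk3bl have the dimmest probes of the family, with lowest signals of 59.2 and 15.6 intensity units, and the part of background in these ratios was not tested.

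**Figure D3:**
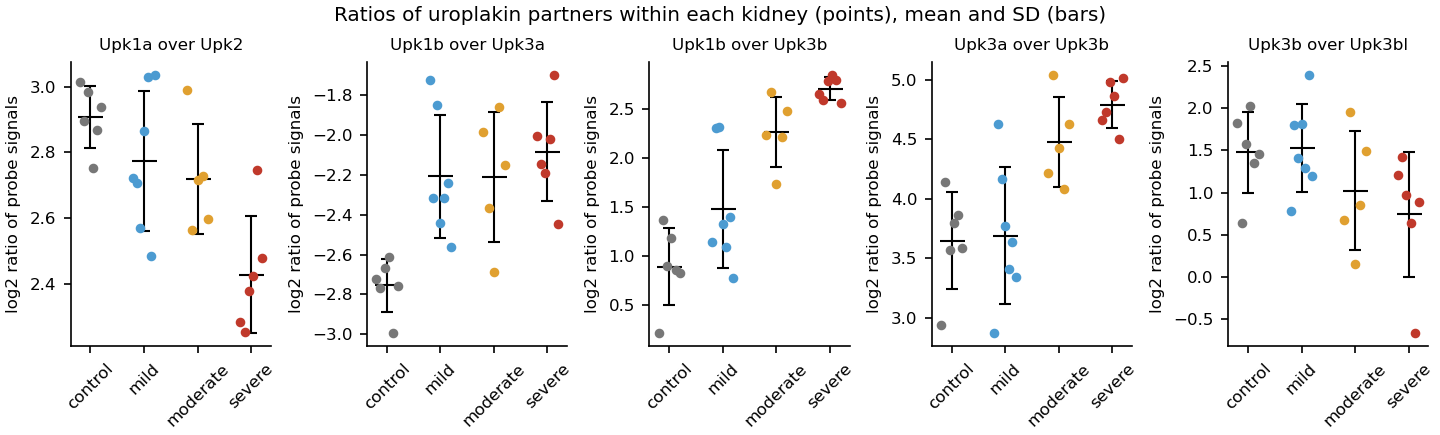
Log2 ratio of the signals of 2 uroplakin probes within a kidney (y axis) by group, for 5 pairs; points are kidneys, bars are the mean and SD. The mean of Upk1a over Upk2 is lowest in severe kidneys, and the means of both ratios over Upk3b are highest there. For Upk1b over Upk3a all mild and severe kidneys exceed all controls, but the lowest moderate kidney does not.

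Across kidneys Upk1a, Upk1b, Upk2 and Upk3a ran almost in parallel. Over the 18 mgb-/- kidneys the 6 correlations among them ranged from r = 0.986 to 0.995, and with the grade means removed from 0.962 to 0.987. Within the 7 mild kidneys they ranged from 0.966 to 0.992, and within the 6 control kidneys from 0.924 to 0.991. Upk3b followed them at 0.933 to 0.954 and Upk3bl at 0.816 to 0.865 over the 18 kidneys, and after removal of the grade means Upk3bl followed them at 0.501 to 0.646. These are descriptions over kidneys that share arrays and scaling, and the 3 grades are not 1 homogeneous group.

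Genes whose levels over the 18 mgb-/- kidneys were most like the mean of Upk1a, Upk1b, Upk2 and Upk3a were sought among 27652 genes by Pearson's r. The 10 closest were Grhl3, Cers3, Fer1l4, Tmprss13, Gjb6, Sprr1a, Tmem40, Uchl1, Fxyd3 and Aldh3b2, with r from 0.991 down to 0.977. Grhl3, a grainyhead-like transcription factor of barrier epithelia, came first. Its levels ran from -3.24 to -2.09 in control, from -3.06 to 0.083 in mild, from -2.12 to 0.16 in moderate and from 0.40 to 2.33 in severe kidneys. The severe kidneys lay above all others, but Grhl3 was chosen for its likeness to the uroplakins in these same kidneys. Its separation is therefore no further evidence. Cers3 makes the very long ceramides of skin barriers, Gjb6 is a gap junction connexin and Sprr1a a small proline-rich protein of cornified envelopes. Upk3b was most like Sdcbp2, Dnase1l2, Aldh3b2, Tspan6 and Psca (r from 0.977 to 0.972), and Upk3bl most like Klrg2, S100a14, Krt13, Oit1 and Krt18 (r from 0.963 to 0.954), so Aldh3b2 was the 1 gene found on more than 1 of these lists.

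Most genes of a list for uroplakin processing and traffic were not called. The RNA came from whole kidneys, so these values do not show levels within the urothelium. In severe against mild kidneys the list's median log2 difference was 0.018 and that of all genes was -0.011. Of its 12 genes 1 was called higher there, beside 0.454% of all genes. The gene was Snx31, a sorting nexin that binds uroplakins on endosomes. It ran from -4.54 to -3.87 in control, from -7.21 to -4.62 in mild, from -4.97 to -3.58 in moderate and from -3.26 to -1.84 in severe kidneys, and was well above background in 5 of the 7 mild kidneys. Mild kidneys lay below and severe kidneys above all controls. Severe kidneys lay above all controls for 2.86% of genes, and the share of genes with mild kidneys below all controls was not counted. Snx31 fell by 1.52 in mild against control kidneys (SE 0.37, limma adjusted p = 0.0187) and rose by 2.60 ± 0.37 in severe against mild kidneys (adjusted p = 0.00314), and its difference of 1.09 in severe against control kidneys was not called (adjusted p = 0.0567). Sytl2, a partner of Rab27 in vesicle docking, rose by 1.07 ± 0.27 in severe against control kidneys. Furin, the protease that trims Upk2, differed by 0.030 ± 0.10 in severe against mild kidneys and was not called.

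Of 26 other tetraspanins tested, Tspan6 was called higher in severe against mild kidneys (1.45 ± 0.31, adjusted p = 0.0295) and in severe against control kidneys (1.75 ± 0.33), and the other 25 were not called in either. The shares of all genes called higher in these comparisons were 0.454% and 2.99%. The list's median difference in severe against mild kidneys was -0.0028, beside 2.89 for the 6 uroplakins.

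Many other urothelial genes were higher in severe kidneys as well. Of 10 urothelial keratins 5 were called higher in severe against mild kidneys (0.454% of all genes) and 9 in severe against control kidneys (2.99%). Their median differences were 2.16 and 2.66. Krt20, Krt19 and Krt14 were also called higher in moderate against control kidneys, where no uroplakin was called. Krt15 and Krt14, keratins of basal cells, rose by 3.02 ± 0.36 and 2.78 ± 0.47 in severe against mild kidneys, and Krt19 and Krt18 by 2.55 ± 0.56 and 1.77 ± 0.40. Krt20, the keratin of umbrella cells, rose by 4.02 ± 0.72 in severe against control kidneys, but its difference of 2.57 ± 0.69 in severe against mild kidneys was not called (adjusted p = 0.115). Its median level was 1.64 in severe and 1.76 in moderate kidneys.

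Of 10 transcription factors of urothelium, 2 were called higher in severe against mild kidneys (0.454% of all genes), Grhl3 by 2.75 ± 0.46 and the forkhead factor Foxa1 by 2.70 ± 0.53. Klf5 (1.97 ± 0.38) and Ehf (1.66 ± 0.36) were among the 6 called in severe against control kidneys (2.99% of all genes). Pparg (0.86 ± 0.33) and Trp63 (-0.071 ± 0.18), factors of umbrella and basal cells, were not called in that comparison. Ehf was already called in mild against control kidneys (1.26 ± 0.35, limma adjusted p = 0.0341). Its mean level was 1.27 in mild and 0.78 in moderate kidneys, so it did not rise with each grade.

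Of 13 further urothelial genes, 7 were called higher in severe against mild (0.454% of all genes) and 11 in severe against control kidneys (2.99%). Their median differences were 2.53 and 2.87. Gjb6 rose by 3.18 ± 0.58, the serpin Serpinb5 by 3.06 ± 0.57, Sprr1a by 2.94 ± 0.52 and Trim29 by 2.80 ± 0.43 in severe against mild kidneys. Serpinb5 was also called higher in moderate against control kidneys (3.18 ± 0.62). Upk1a, Upk1b, Upk2, Upk3a and Upk3bl, as well as Krt14, Krt18, Krt19, Grhl3, Foxa1, Sprr1a and Gjb6, belong to a list of urothelial genes that the study had chosen from severe and mild kidneys of this same series, so their rise is no independent evidence of its direction.

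Markers of other tissues were set beside the uroplakins. Of 7 mesothelial genes tested, Krt19 (also a urothelial keratin) and Msln were called higher in severe against mild kidneys (0.454% of all genes). Rspo1 and Nkain4 were called in addition in severe against control kidneys (2.99%). Nkain4 was already called in mild against control kidneys (1.08 ± 0.25, limma adjusted p = 0.0159, with 1.15% of all genes called higher). Krt19 and Nkain4 were called in moderate against control kidneys (0.529%). Msln, which encodes mesothelin, ran from -1.66 to -0.20 in control and from 1.54 to 4.00 in severe kidneys. Lrrn4 and Bnc1 were too dim to test. In severe against mild kidneys 4 of the 7 lay above 0, and the other 3 were Podxl (-0.78 ± 0.18), Wt1 (-0.53 ± 0.21) and Gpm6a (-0.19 ± 0.24), none of them called. Podxl and Wt1 are podocyte markers as well and stand on both lists. The mean of the mesothelial list, centred per gene, ran from -1.01 to -0.38 in control, from -0.56 to 0.33 in mild, from -0.16 to 0.48 in moderate and from 0.15 to 1.17 in severe kidneys. Its part in the Upk3b result was not tested.

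In severe against mild kidneys limma called 0 of 8 smooth muscle genes (5 at an unadjusted p under 0.05), 0 of 8 proximal tubule genes (2), 0 of 6 podocyte genes (5), 0 of 7 collecting duct genes (2), 0 of 5 leukocyte genes (1) and 0 of 5 proliferation genes (0). Of all 27959 genes 0.454% were called higher and 0.00715% lower, and 3104 had an unadjusted p under 0.05. Median log2 differences were 0.87 for smooth muscle, -0.43 for proximal tubule and -0.71 for podocytes. In severe against control kidneys 2.99% of all genes were called higher and 1.73% lower. There 3 of 8 smooth muscle genes were called higher, the contractile genes Tagln (1.66 ± 0.32), Acta2 (1.59 ± 0.36) and Cnn1 (1.54 ± 0.52). Myh11, the smooth muscle myosin, differed by 0.0002 ± 0.69. Of the 8 proximal tubule genes 1 was called, the glucose carrier Slc5a2, which fell by 1.16 (SE 0.34). Of the 7 collecting duct genes 1 was called, the water channel Aqp2, which rose by 1.03 ± 0.29 (adjusted p = 0.0230). Aqp2 was called in mild against control kidneys as well (1.09 ± 0.28, limma adjusted p = 0.0257). No podocyte, leukocyte or proliferation gene was called by limma in severe against control kidneys (1, 0 and 2 at an unadjusted p under 0.05). All 5 proliferation genes were nevertheless lower than in controls there, with a median log2 difference of -0.97. The same 5 were lower than in controls at the milder grades too, and again none was called. Their median was -1.18 for mild kidneys (5 at an unadjusted limma p under 0.05) and -0.70 for moderate ones (0). The cause was not tested.

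**Figure D4:**
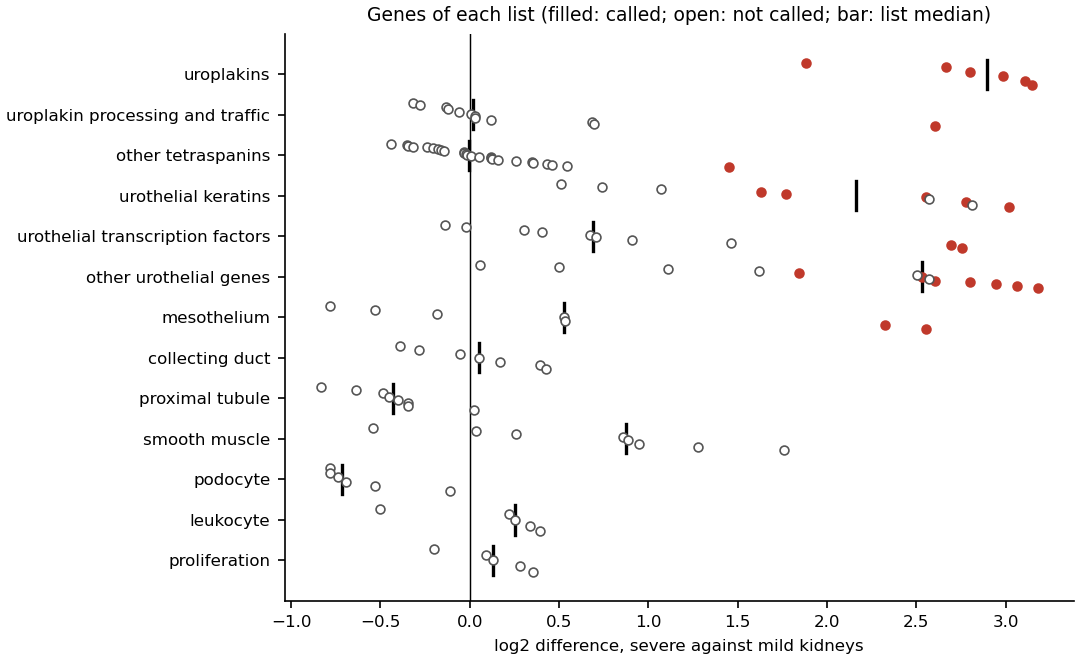
Log2 difference of severe against mild kidneys (x axis) for the tested genes of each list (rows); filled points were called by limma (a fold of 2 or more with an adjusted p under 0.05), and the black bar is the list's median. The 6 uroplakins are all filled with a median of 2.89, beside medians of 0.018 for their processing and traffic genes and -0.0028 for other tetraspanins. All values are of whole kidneys and not of urothelium alone.

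Kidney by kidney, the mean of Upk1a, Upk1b, Upk2 and Upk3a ran with 6 urothelial markers that are no uroplakins (Krt5, Krt14, Krt20, Psca, Foxa1 and Grhl3) at r = 0.945 and rho = 0.932 over the 18 mgb-/- kidneys. It was 0.876 with the grade means removed, 0.971 within the 7 mild and 0.730 within the 6 severe kidneys, and 0.921 without mild replicates 1 and 5, the 2 kidneys farthest from the median. Krt14, Foxa1 and Grhl3 are on the study's own list from severe and mild kidneys of this series. Grhl3 was also the gene closest to this mean, so the r is in part built in. Trp63, a urothelial factor that did not rise, is not among the 6. With the mesothelial list r was 0.764 (rho 0.849), falling to 0.513 with the grade means removed and 0.283 within severe kidneys. With smooth muscle it was 0.630 (rho 0.614), and -0.090 on slide 3, and with podocyte genes it was -0.736 (rho -0.639). Proximal tubule genes gave -0.534 (rho -0.494) and 0.011 on slide 3. Lcn2, a transcript of injured tubules, gave 0.454 (rho 0.614) and the proliferation gene Mki67 0.052 (rho -0.0072). Collecting duct genes gave 0.189 (rho 0.222), leukocyte genes 0.033 (rho -0.162) and the 5 proliferation genes -0.066 (rho -0.032). Within the 7 mild kidneys alone r was -0.859 for proximal tubule, -0.663 for proliferation, -0.606 for Mki67, -0.593 for leukocyte, -0.583 for podocyte, 0.439 for collecting duct, 0.658 for mesothelial and 0.749 for smooth muscle genes and 0.744 for Lcn2, so several pooled values near 0 stood beside larger values within this grade. These 10 relations are given as descriptions, without the permutation p-values that were computed, since the mean is a score over chosen genes and kidneys of 3 grades are pooled.

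**Figure D5:**
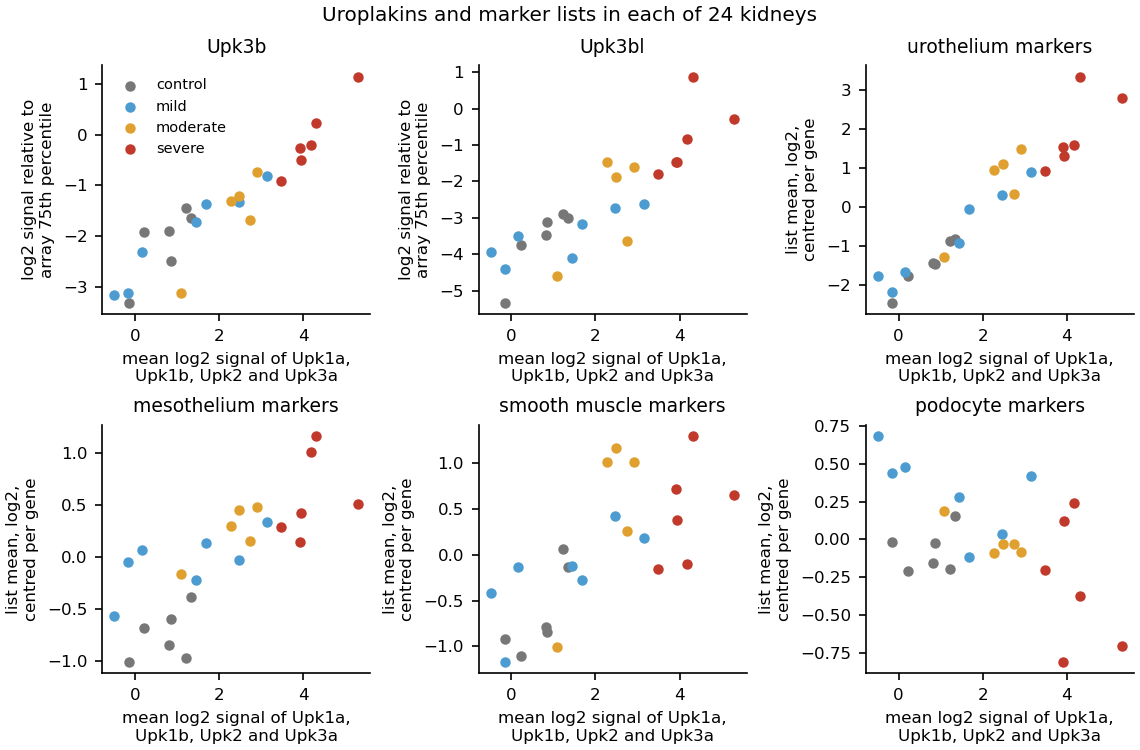
Upk3b, Upk3bl and the means of 4 marker lists (y axes, log2) against the mean log2 signal of Upk1a, Upk1b, Upk2 and Upk3a (x axis) in each of the 24 kidneys, coloured by group. The urothelial markers rise along a narrow band (r = 0.945 over the mgb-/- kidneys), the podocyte markers decline (r = -0.736), and moderate replicate 5 lies low for Upk3b and Upk3bl.

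Genes beside the uroplakins on the chromosome gave a further measure. Of 17 tested protein-coding genes within 2 places of a uroplakin, limma called 0 in severe against mild kidneys (3 at an unadjusted p under 0.05), with differences from -1.02 to 0.74 and a median of -0.041. Of all 27959 genes 0.454% were called higher there, and 3104 had an unadjusted p under 0.05. In severe against control kidneys 1 of the 17 was called, where 2.99% of all genes were called higher and 1.73% lower. It was Zbtb32 beside Upk1a, which rose by 1.09 ± 0.18 (adjusted p = 0.00108), and Upk1a itself rose by 3.19. Upk3b and Upk3bl are direct neighbours on chromosome 5, and Dtx2 and Rasa4 on either side of them differed by 0.034 and 0.42 in severe against mild kidneys, neither of them called.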

How the data were processed

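Per the labels and the file headers, each kidney's RNA was labelled with Cy3 and read from its own 8x60K mouse array with Agilent Feature Extraction 10.10. The authors deposited each spot's processed intensity, background-subtracted and detrended within the array but not scaled between arrays, and a table of normalized intensities whose method is not given in the sources used here.

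The log2 processed intensity minus the array's 75th percentile (496 to 968 units) was used. Outlier spots were dropped and spots of a probe averaged. A probe was kept if 5 or more arrays had it well above background (38838 of 55681), and the brightest probe stood for a gene. Names came from RefSeq accessions (26756 probes), and neighbours from the order of GRCm38.p6 genes only. The number of arrays limits the precision.

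The 4 groups were fitted together in limma 3.58.1 (R 4.3.3), with mgb-/- against control as a fit of 2 groups and the slope over mgb-/- kidneys. P-values were adjusted by Benjamini-Hochberg. Partner ratios used exact permutation tests. The steps were tested on simulated data.

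The members and lists were chosen with earlier results of these data known. Named genes were the uroplakins, per list up to 4 called genes with the largest change in severe against mild and in severe against control kidneys, the genes most like the uroplakins, the chromosomal neighbours and Lcn2; uncalled list members beside them were named for contrast. Lists of 26 other tetraspanins and of marker genes are those in the text. The alternatives were other scalings, background correction, the authors' table, filters, probe choice, blocks, weights, thresholds and omission of kidneys.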

Additional observations from a re-analysis of the deposited data

Results flagged for a closer look

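Within a group of 4 to 10 kidneys, a kidney was singled out where its gap to the nearest other kidney was a large share of the group's range (Dixon's criterion at the 95% level). Of 24 sets of values (6 uroplakins in 4 groups) 4 met it, and for a single set chance alone gives about 1 in 20. The sets are not independent, since Upk1a, Upk1b, Upk2 and Upk3a ran almost in parallel over the same kidneys. The count can therefore not be read as an excess over chance. Severe replicate 2 had a level of 4.69 for Upk2, where the next severe kidney had 3.49, and of 5.87 for Upk3a, where the next had 4.72. Moderate replicate 5 had a level of 1.51 for Upk3a, where the next lowest moderate kidney had 3.02. Control replicate 4 had a level of -5.34 for Upk3bl, where the next lowest control had -3.74, and it is the kidney in which this probe was not well above background.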

How the results depend on the processing

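The 6 calls in severe against control kidneys held in every alternative, and in severe against mild kidneys 4 to 6 uroplakins were called in all but the fit on those groups alone (0 called by limma, 6 at an unadjusted p under 0.05). In mgb-/- against control kidneys, where the count was 1, it was 0 with quantile normalization, median scaling, normexp or no filter on dim probes, 2 with probes above background on all 24 arrays, and 3 with array quality weights or an adjusted p under 0.1. Between 3 and 4 uroplakins had an unadjusted p under 0.05 in these alternatives. With 1 kidney left out the count ran from 0 to 3. In moderate against control kidneys, where it was 0, it was 3 with array quality weights, 1 with an adjusted p under 0.1, and from 0 to 1 with a kidney left out. The slope count of 5 was 0 with median scaling or the slide as a block (6 at an unadjusted p under 0.05 in each), and from 0 to 6 with a kidney left out. The Upk3bl slope lost its call in 8 of 11 other alternatives (adjusted p from 0.0322 to 0.314 over all 11). The cause was not tested.

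At these thresholds, counts of all genes called moved by over 1.5 times in these cases. The 1318 of severe against control kidneys became 708 with normexp and 861 with the authors' table, the 864 of mgb-/- against control kidneys 416 and 497, and the 618 of mild against control kidneys 360 with normexp, 278 with the replicate block, 1165 with array quality weights and 964 for those groups alone. The 204 of moderate against control kidneys ran from 17 (replicate block) to 1477 (array quality weights), the 129 of severe against mild kidneys down to 52 (replicate block) and 0 (those groups alone), the 2 of severe against moderate kidneys from 0 to 105 and the 0 of moderate against mild kidneys up to 221 (both with array quality weights), and the 65 of the slope from 0 (median scaling, slide or replicate block) to 129.

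With the replicate number as a replicate block, limma called 0 uroplakins in mgb-/- against control kidneys (4 at an unadjusted p under 0.05) and 0 for the slope (6), and 4 in severe against mild kidneys, where Upk3b (adjusted p = 0.225) and Upk3bl (adjusted p = 0.129) lost their calls. Kidneys of different groups with the same number did not deviate together (median r 0.0048 over 33 pairs, 10 of them over 0.1). Those with other numbers had a median r of 0.0036. This gave no sign of pairing by number, but it cannot show whether kidneys shared a mouse or a litter. Kidneys on the same slide had a median r of 0.072 over 70 pairs, and those on different slides -0.037 over 145 pairs.

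Uncalled differences in mild against control kidneys changed sign. With median scaling, which moved the median of all genes from 0.011 to -0.136, Upk3b was -0.0001 and Upk3bl -0.048. Upk3bl was -0.028 with normexp and -0.016 with the authors' table, and Upk3b was -0.030 with array quality weights. With a kidney left out Upk3a ran from -0.16 to 0.52, Upk3b from -0.093 to 0.34 and Upk3bl from -0.25 to 0.25.

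Within slides, Upk1a over Upk2 differed by -0.62 (slide 1) and -0.13 (slide 3) in severe against mild and by -0.43 (slide 3) in mild against control kidneys. Upk1b over Upk3a differed by 0.94 (slide 2) in severe against control kidneys. Upk3b over Upk3bl differed by 0.16 (slide 1) in severe against mild and by -0.66 (slide 1) in mild against control kidneys, where the Upk3a over Upk3b difference ran from -0.12 to 0.18 and that of Upk3b over Upk3bl from -0.12 to 0.17 with a kidney left out. With a kidney left out Upk1b over Upk3b ran from 0.45 to 0.71 in mild against control, and Upk3b over Upk3bl from -0.90 to -0.45 in severe against control and from -0.92 to -0.50 in severe against mild kidneys. Removal of grade means, chosen after seeing the data, gave r with the mean of Upk1a, Upk1b, Upk2 and Upk3a of 0.513 for mesothelium and -0.456 for podocytes. On slide 1 r was -0.797 for proximal tubule and -0.759 for leukocytes, on slide 2 it was 0.951 for smooth muscle, 0.466 for leukocytes, 0.496 for proliferation and 0.563 for Mki67, and on slide 3 it was 0.011 for proximal tubule, -0.090 for smooth muscle, -0.458 for podocytes, -0.349 for proliferation and -0.239 for Mki67.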
